A study of Homo sapiens with 4 samples.

Results

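Genes for protein folding and disposal in the endoplasmic reticulum (ER) were followed through transfection of 2 melanoma cell lines with an siRNA against the zinc-finger transcription factor ZIC5. A list of 35 human ER genes was sorted by role. It held 11 chaperones and co-chaperones, 6 disulfide enzymes and 9 genes of ER-associated degradation (ERAD). The rest were 6 genes of translocation and ER exit and a sensor class of 3, the stress sensors ERN1 and ATF6 with XBP1. Of the 35 genes, 34 had a probe set of their own and all 34 passed the level minimum, among 13794 genes analysed. SYVN1, the ERAD ubiquitin ligase, had only a probe set that the annotation shares with a miRNA gene and was not analysed here. Where a gene had several probe sets, the brightest on average stood for it.

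The 4 groups were A375 cells with ZIC5 siRNA, A375 cells with a negative control siRNA, SK-MEL-28 cells with ZIC5 siRNA and SK-MEL-28 cells with the control siRNA. RNA was taken 48 h after transfection and each group was hybridised to 1 Affymetrix array from 100 ng of RNA. Both are established human melanoma lines that carry an activating BRAF mutation. The labels give neither the siRNA sequences nor how many siRNAs were used, so an effect of losing ZIC5 and an effect of the siRNA on another transcript cannot be told apart.

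Proteins that enter the secretory pathway cross the ER membrane through the SEC61 channel and fold with the help of the Hsp70-type chaperone HSPA5 (BiP), its co-chaperones, lectin chaperones and protein disulfide isomerases. Chains that fail to fold are trimmed by EDEM proteins, pulled back into the cytosol and sent to the proteasome by ERAD. The membrane sensors ERN1 (IRE1), ATF6 and EIF2AK3 (PERK) detect misfolded protein and start the unfolded protein response. ERN1 splices XBP1 mRNA into the form that encodes an active transcription factor, and the annotation used here does not say whether the XBP1 probe set tells it from the unspliced form.

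Many promoters of this pathway hold the ER stress response element, ERSE, which ATF6 and XBP1 bind together with NF-Y. Promoter windows from RefSeq (GRCh38.p14, 250 bases before to 50 bases after the annotated start) were matched by symbol for 31 of the 35 genes. They were searched on both strands for 4 motifs: ERSE (CCAAT, 9 bases, CCACG), ERSE-II (ATTGG, 1 base, CCACG), the UPR element (TGACGTGG) and the ATF4 composite element (TGATG, 1 base, AA). ERSE stood in 7 of the 31 windows (22.6%), against 22 of 27305 windows of all genes (0.0806%). ERSE-II stood in 3 of the 31 (9.68%), against 15 of all windows (0.0549%). HYOU1 had the only UPR element of the 31 (3.23%, against 0.795% of all windows), overlapping an ERSE-II, and HERPUD1 the only ATF4 composite element (3.23%, against 3.67%). The list was drawn from a pathway whose promoters are known for ERSE, so these shares describe the list and test nothing. A match of these letters is no measurement of binding.

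The windows of HSPA5, the leading ER chaperone, and of HERPUD1, the ERAD gene with the greatest positive difference in both lines, are shown whole, 5′ to 3′ on the strand of the gene, with the motifs in capitals. The HSPA5 window is chr9:125241294-125241593 on the minus strand, with an ERSE from position -66 to -48 of the start. The HERPUD1 window is chr16:56931892-56932191 on the plus strand, with the ATF4 composite element from -176 to -169 and the ERSE-II from -117 to -107.
HSPA5: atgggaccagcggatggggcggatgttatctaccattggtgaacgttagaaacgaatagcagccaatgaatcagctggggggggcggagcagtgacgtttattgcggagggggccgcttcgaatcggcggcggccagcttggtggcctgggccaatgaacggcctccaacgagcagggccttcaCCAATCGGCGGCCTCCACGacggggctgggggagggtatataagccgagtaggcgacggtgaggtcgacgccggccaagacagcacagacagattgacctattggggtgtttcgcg
HERPUD1: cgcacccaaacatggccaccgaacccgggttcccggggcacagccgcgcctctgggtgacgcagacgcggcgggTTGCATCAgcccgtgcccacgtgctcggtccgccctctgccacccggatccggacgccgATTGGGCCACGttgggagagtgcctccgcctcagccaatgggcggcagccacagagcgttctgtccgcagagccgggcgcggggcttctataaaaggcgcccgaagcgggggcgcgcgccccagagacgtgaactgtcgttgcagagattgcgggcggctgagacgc

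The other members with an ERSE or ERSE-II are shown by the element in capitals and up to 10 bases on either side, on the strand of the gene, so that the spacing can be compared. In CALR, HYOU1, SDF2L1, CRELD2, ERO1B and the second HSP90B1 element it reads on the opposite strand. The 2 HSP90B1 elements lie at chr12:103930206-103930244 and chr12:103930311-103930349, and the stretch of CALR at chr19:12938374-12938412, of CANX at chr5:179698768-179698806 and of CRELD2 at chr22:49918544-49918582, all on the plus strand. XBP1 lies at chr22:28800593-28800631 and ERO1B at chr1:236282173-236282208, on the minus strand. The ERSE-II stretches are HYOU1 at chr11:119057264-119057294 on the minus strand and SDF2L1 at chr22:21642104-21642134 on the plus strand. HYOU1 has a second one at chr11:119057370-119057400, whose capitals include the UPR element.
HSP90B1 first: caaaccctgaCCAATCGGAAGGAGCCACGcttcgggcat
HSP90B1 second: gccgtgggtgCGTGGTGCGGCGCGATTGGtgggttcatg
CALR: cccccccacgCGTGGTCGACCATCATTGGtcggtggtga
CANX: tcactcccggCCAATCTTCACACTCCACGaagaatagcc
CRELD2: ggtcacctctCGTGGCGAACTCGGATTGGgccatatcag
XBP1: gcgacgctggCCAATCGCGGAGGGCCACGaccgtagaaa
ERO1B: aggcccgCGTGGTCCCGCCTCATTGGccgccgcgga
HYOU1: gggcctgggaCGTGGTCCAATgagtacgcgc
HYOU1 with UPR element: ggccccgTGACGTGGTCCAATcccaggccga
SDF2L1: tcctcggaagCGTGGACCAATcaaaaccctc

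ZIC5 itself read 14.1 with ZIC5 siRNA and 16.8 with control siRNA in A375 cells, and 15.5 with ZIC5 siRNA and 21.4 with control siRNA in SK-MEL-28 cells, all under the level minimum of 32, so these arrays give no check of the knockdown. The median intensity per array lay between 38.4 and 39.4. Of 8 melanocytic markers measured, all 8 passed the level minimum, which is a mean over all 4 arrays and not a call in each line. Their summed intensity was 2445 with ZIC5 siRNA and 1860 with control siRNA in A375, and 43819 with ZIC5 siRNA and 47070 with control siRNA in SK-MEL-28. In A375 the pigment cell genes MLANA and TYRP1 were near the bottom of the scale. MLANA read 17.0 with ZIC5 siRNA and 13.9 with control siRNA, and TYRP1 under 9 with both. Near the level minimum in A375 were TYR, 26.7 with ZIC5 siRNA and 33.5 with control siRNA, and PMEL, 35.9 and 32.4. SOX10 read 1660 with ZIC5 siRNA and 895 with control siRNA in A375. MITF was lower there, 235 with ZIC5 siRNA and 357 with control siRNA, as was S100B, 334 and 413. The greater A375 sum with ZIC5 siRNA thus rests on SOX10. Summed intensities over 4 epithelial, 3 leukocyte and 3 endothelial markers were at most 432, 93.7 and 131. Values from a whole culture do not separate fewer cells from less RNA per cell, and 1 array per group allows no test within a line, so the differences below carry no replicate error. The median SD between probe sets of the same gene was 0.25 in A375 cells and 0.15 in SK-MEL-28 cells on the log2 scale and serves as the only technical yardstick. It is taken within the same arrays, so a difference beyond it can still be error between arrays or cultures.

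**Figure D1:**
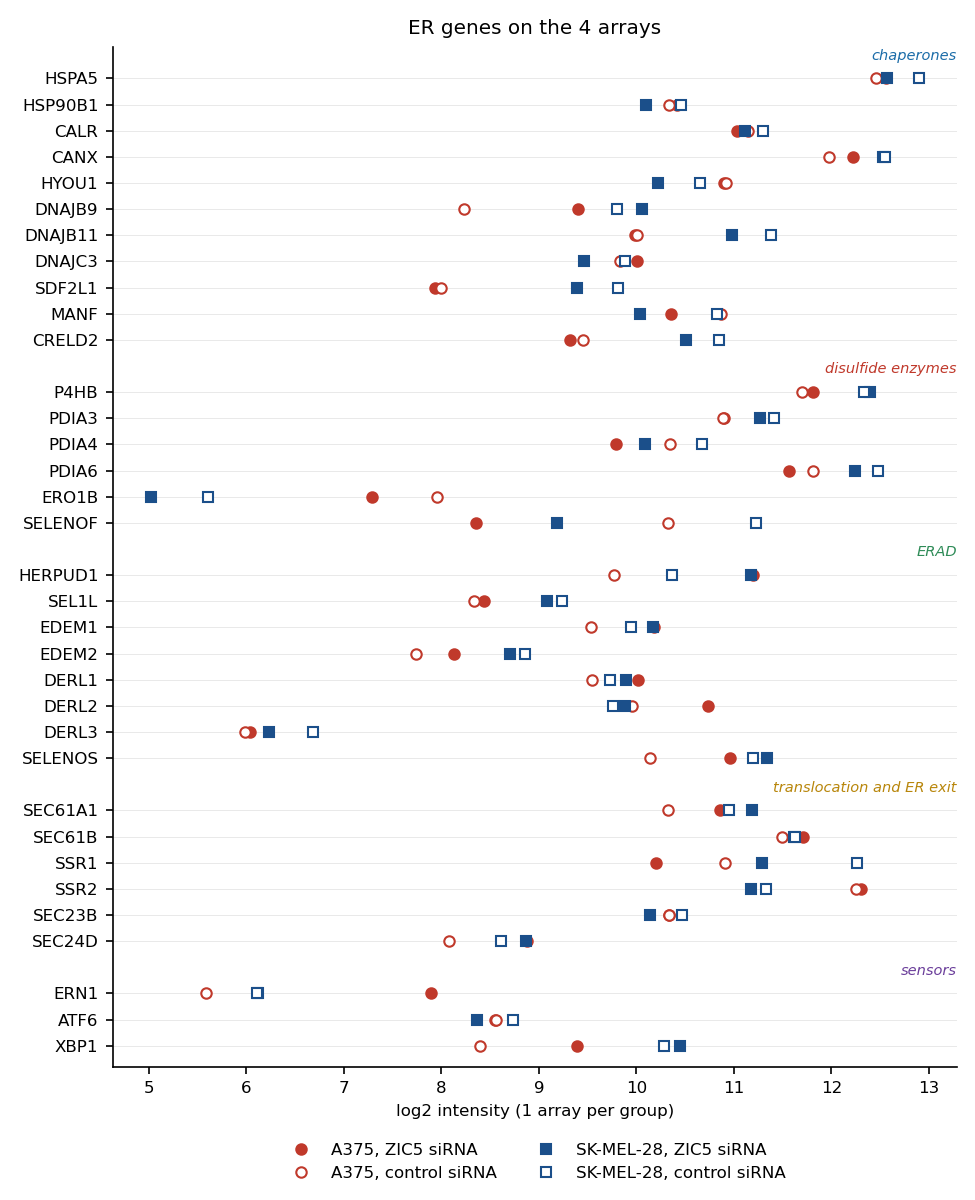
Log2 intensity of the 34 ER genes on each of the 4 arrays (1 symbol per array), grouped by role. ERN1, DNAJB9, XBP1 and HERPUD1 have their A375 control array well to the left of the A375 ZIC5 siRNA array, and SELENOF has both ZIC5 siRNA arrays to the left of both control arrays.

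The siRNA difference of the ER genes is given as log2 intensity with ZIC5 siRNA minus control siRNA in the same line. In A375 it had a median of 0.09 over the 34 genes, beside -0.01 over all genes analysed, and in SK-MEL-28 a median of -0.17, beside 0.00. In A375, 21 of 34 (61.8%) were above 0, beside 48.5% of all genes, and 13 (38.2%) below 0, beside 51.2%. In SK-MEL-28 the balance lay the other way, with 11 (32.4%) above 0, beside 50.2%, and 23 (67.6%) below, beside 49.6%. By a rule of at least 1.5-fold, 8 genes (23.5%) were higher and 3 (8.82%) lower in A375, beside 12.1% and 12.9% of all genes, and 1 (2.94%) was higher and 4 (11.8%) lower in SK-MEL-28, beside 4.2% and 6.41%. At 2-fold the counts were 4 higher (11.8%) and 1 lower (2.94%) in A375, beside 3.89% and 5.05%, and 0 higher and 1 lower (2.94%) in SK-MEL-28, beside 0.776% and 2.12%. Averaging the probe sets of a gene left 2 genes at 2-fold higher and 1 at 1.5-fold lower in A375. Plain _at probe sets alone left 0 higher and 2 lower at 1.5-fold in SK-MEL-28. For these alternatives the shares of all genes were not computed. No test stands behind these counts, and the list was drawn up with results of these arrays known.

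Among the chaperones, the 2 lines differed in which way most genes lay. In SK-MEL-28, 10 of 11 were lower with ZIC5 siRNA, beside 49.6% of all genes. They lay between -0.79 and -0.02, and the class median was -0.35. In A375 the class median was -0.02, with 5 higher and 6 lower, beside 51.2% of all genes lower. HSPA5 had intensities of 6033 with ZIC5 siRNA and 5618 with control siRNA in A375 cells, and 6097 with ZIC5 siRNA and 7619 with control siRNA in SK-MEL-28 cells. Its A375 difference of 0.10 was within the spread between probe sets of a gene and its SK-MEL-28 difference of -0.32 was beyond it. A dimmer HSPA5 probe set gave -1.18 (A375) and -1.197 (SK-MEL-28), lower in both lines, so the A375 direction depends on the probe set.

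HYOU1, a large Hsp70-type chaperone that helps BiP exchange its nucleotide, read 1907 with ZIC5 siRNA and 1931 with control siRNA in A375 cells and 1193 with ZIC5 siRNA and 1613 with control siRNA in SK-MEL-28 cells, differences of -0.02 (A375) and -0.44 (SK-MEL-28). HSP90B1 (GRP94, the ER form of Hsp90) differed by 0.07 (A375) and -0.35 (SK-MEL-28). DNAJB11, a J-domain co-chaperone of BiP, differed by -0.03 (A375) and -0.40 (SK-MEL-28), and its partner SDF2L1 by -0.06 (A375) and -0.41 (SK-MEL-28). All 4 genes were near 0 in A375 and lower in SK-MEL-28. CRELD2, an ER-resident protein induced by ER stress, differed by -0.13 (A375) and -0.35 (SK-MEL-28), and the lectin chaperone CALR by -0.11 (A375) and -0.18 (SK-MEL-28). Its membrane-bound relative CANX differed by 0.25 (A375) and -0.02 (SK-MEL-28).

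MANF, a small ER protein that binds BiP, was lower in both lines. Its intensity was 1305 with ZIC5 siRNA and 1873 with control siRNA in A375 cells, and 1050 with ZIC5 siRNA and 1819 with control siRNA in SK-MEL-28 cells, 1.44-fold lower in A375 and 1.73-fold lower in SK-MEL-28. Both ZIC5 siRNA arrays lay below both control arrays.

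DNAJB9 (ERdj4), a J-domain co-chaperone of BiP that acts on ERN1 and in ERAD, was the chaperone-class gene with the greatest positive difference in A375. It read 675 with ZIC5 siRNA and 299.8 with control siRNA in A375, 2.25-fold higher, and 1064 with ZIC5 siRNA and 889 with control siRNA in SK-MEL-28, a log2 difference of 0.26. The A375 control array was the lowest of the 4, and the A375 array with ZIC5 siRNA stayed below both SK-MEL-28 arrays. All 3 of its probe sets gave this sign, between 1.17 and 1.47 in A375 and between 0.21 and 0.26 in SK-MEL-28. DNAJC3, another J-domain co-chaperone, differed by 0.18 (A375) and -0.42 (SK-MEL-28) on its brightest probe set, but its 4 probe sets spread from 0.18 to 1.497 in A375 and from -0.42 to 0.29 in SK-MEL-28.

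The disulfide enzymes leaned low in both lines, with class medians of -0.40 in A375 cells and -0.41 in SK-MEL-28 cells, which became -0.22 and -0.16 with plain _at probe sets. SELENOF, a selenoprotein that binds the glycoprotein-folding sensor UGGT, had the most negative difference of the whole list. It read 327 with ZIC5 siRNA and 1286 with control siRNA in A375 cells, and 582 with ZIC5 siRNA and 2391 with control siRNA in SK-MEL-28 cells. That is 3.93-fold lower in A375 and 4.11-fold lower in SK-MEL-28, on a single probe set, and both ZIC5 siRNA arrays lay below both control arrays.

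PDIA4 (ERp72), a protein disulfide isomerase, read 887 with ZIC5 siRNA and 1303 with control siRNA in A375 cells and 1088 with ZIC5 siRNA and 1633 with control siRNA in SK-MEL-28 cells, log2 differences of -0.55 (A375) and -0.59 (SK-MEL-28). The SK-MEL-28 value lies just inside the 1.5-fold mark and that of ERO1B, at -0.58, just outside it. Both PDIA4 probe sets had that sign in each line. PDIA6 differed by -0.25 in A375 cells and -0.24 in SK-MEL-28 cells, with all 4 probe sets of that sign in each line. P4HB, the founding protein disulfide isomerase, differed by 0.12 (A375) and 0.06 (SK-MEL-28), and PDIA3 (ERp57), which works with CALR and CANX, by 0.01 (A375) and -0.15 (SK-MEL-28), although 2 dimmer PDIA3 probe sets gave -0.87 and -0.67 in A375.

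ERO1B, an oxidase that recharges PDIs, differed by -0.67 in A375 cells and -0.58 in SK-MEL-28 cells. Its intensities were 156 with ZIC5 siRNA and 249 with control siRNA in A375 but only 32.6 with ZIC5 siRNA and 48.7 with control siRNA in SK-MEL-28, near the level minimum. The other ERO1B probe set gave 0.68 in A375, so the A375 direction depends on the probe set.

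All 8 measured ERAD genes were above 0 in A375, beside 48.5% of all genes, between 0.05 and 1.43, with a median of 0.56. In SK-MEL-28, 5 of the 8 were above 0, beside 50.2%, with a median of 0.13. With plain _at probe sets DERL1 (-0.11) and DERL3 (-0.085) were below 0 in A375, so the A375 count depends on the probe set. HERPUD1, a membrane protein that organises the SYVN1 complex, read 2350 with ZIC5 siRNA and 874 with control siRNA in A375 cells, and 2318 with ZIC5 siRNA and 1321 with control siRNA in SK-MEL-28 cells. It was 2.69-fold higher in A375 and 1.76-fold higher in SK-MEL-28, and both ZIC5 siRNA arrays lay above both control arrays. Both of its probe sets were higher in both lines.

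SELENOS, a selenoprotein that draws the ATPase VCP to the membrane, read 1987 with ZIC5 siRNA and 1130 with control siRNA in A375, 1.76-fold higher, and 2594 with ZIC5 siRNA and 2348 with control siRNA in SK-MEL-28, 1.10-fold higher. The A375 control array was the lowest of the 4. DERL2, a derlin of the retrotranslocation site, read 1702 with ZIC5 siRNA and 992 with control siRNA in A375 cells and 944 with ZIC5 siRNA and 867 with control siRNA in SK-MEL-28 cells, but its dimmer probe set gave -0.49 in A375. EDEM1, which trims mannose from misfolded glycoproteins, differed by 0.65 (A375) and 0.23 (SK-MEL-28) on 1 probe set.

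EDEM2, which takes the first mannose off, differed by 0.39 (A375) and -0.15 (SK-MEL-28), and DERL1 by 0.47 (A375) and 0.16 (SK-MEL-28), with 2 of 4 DERL1 probe sets of that sign in A375 and 1 of 4 in SK-MEL-28. SEL1L, the partner of SYVN1, differed by 0.11 (A375) and -0.15 (SK-MEL-28). DERL3 differed by 0.05 (A375) and -0.46 (SK-MEL-28) at low intensities, from 63.5 to 103 over the 4 arrays, and its A375 value was -0.023 with its probe sets averaged. Its dimmer probe sets gave -0.09 and 0.17 in SK-MEL-28.

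Among genes of translocation and ER exit, partners in a complex did not always lie alike. SSR1 and SSR2 are both subunits of the TRAP complex beside the SEC61 channel. SSR1 read 1175 with ZIC5 siRNA and 1920 with control siRNA in A375 cells, and 2493 with ZIC5 siRNA and 4923 with control siRNA in SK-MEL-28 cells, 1.63-fold lower in A375 and 1.97-fold lower in SK-MEL-28, while SSR2 differed by 0.04 (A375) and -0.15 (SK-MEL-28). All 6 SSR1 probe sets were lower in SK-MEL-28, from -1.05 to -0.15, and 5 of 6 in A375, with the remaining one at 0.48.

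SEC24D, a cargo-binding subunit of the COPII coat of ER exit vesicles, read 470 with ZIC5 siRNA and 269.8 with control siRNA in A375, 1.74-fold higher, and 466 with ZIC5 siRNA and 391 with control siRNA in SK-MEL-28, 1.19-fold higher. Its coat partner SEC23B differed by -0.00 (A375) and -0.33 (SK-MEL-28). SEC61A1, the pore subunit of the channel, differed by 0.53 (A375) and 0.24 (SK-MEL-28), and SEC61B by 0.22 (A375) and -0.01 (SK-MEL-28). The class medians were 0.13 in A375 cells and -0.08 in SK-MEL-28 cells.

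The sensors and XBP1 differed among themselves in A375. ERN1 read 238 with ZIC5 siRNA and 48.2 with control siRNA in A375, 4.94-fold higher, and 69.5 with ZIC5 siRNA and 69.0 with control siRNA in SK-MEL-28. The A375 ZIC5 siRNA array stood alone, as the other 3 arrays read under 70. The other 2 ERN1 probe sets gave only 0.13 and 0.33 in A375, so the size rests on 1 of 3 probe sets while the sign is shared by all 3.

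XBP1 read 673 with ZIC5 siRNA and 336 with control siRNA in A375, a log2 difference of 1.002 that lies just inside the 2-fold mark, and 1395 with ZIC5 siRNA and 1245 with control siRNA in SK-MEL-28, 1.12-fold higher. Its A375 control array was the lowest of the 4. ATF6 differed by -0.00 in A375 cells and -0.36 in SK-MEL-28 cells on its brightest probe set, and its 4 probe sets were all below 0, from -0.91 to -0.00 in A375 and from -0.36 to -0.08 in SK-MEL-28.

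**Figure D2:**
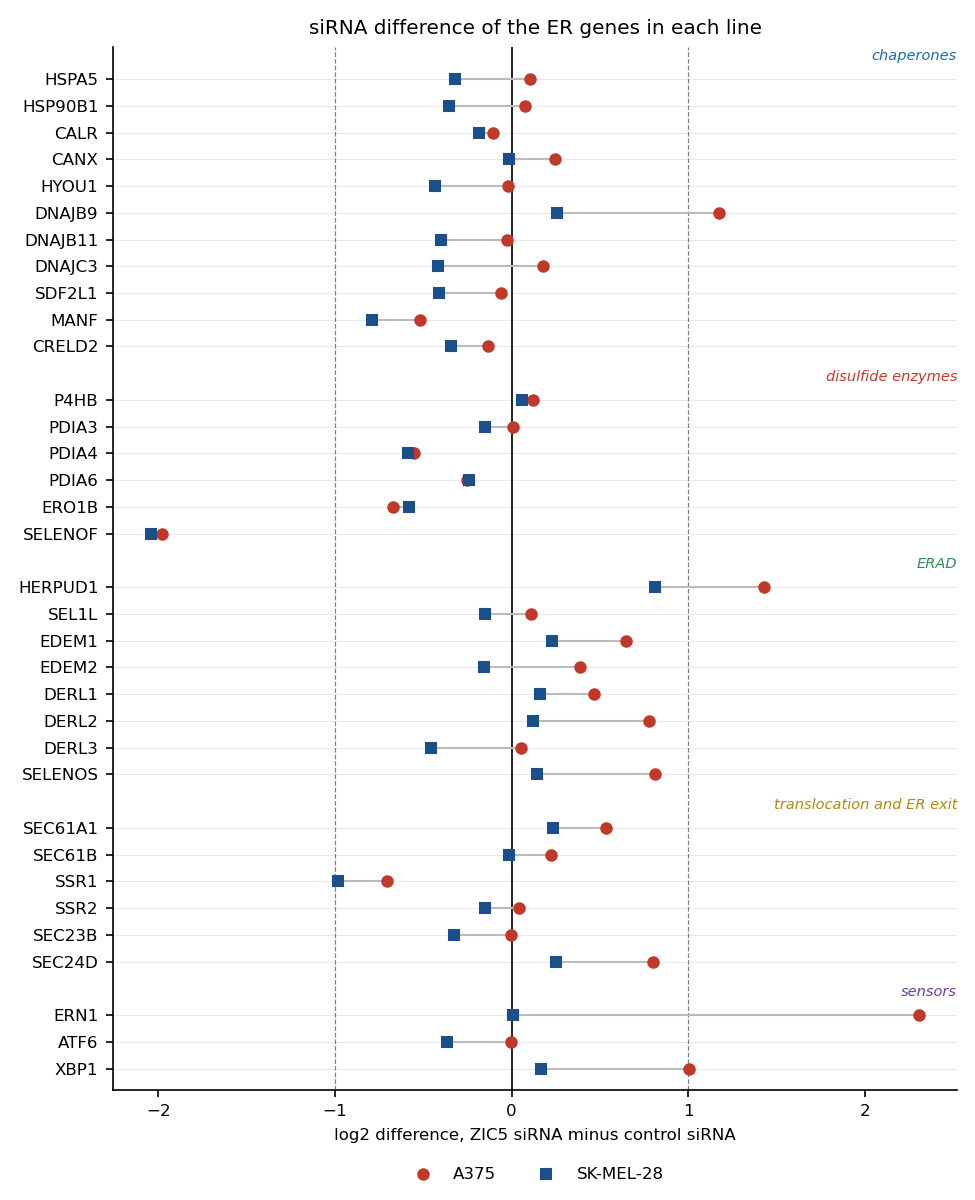
Log2 difference, ZIC5 siRNA minus control siRNA, for each ER gene in A375 (circles) and SK-MEL-28 (squares), with dashed lines at 2-fold. The A375 circle lies to the right of the SK-MEL-28 square for 32 of 34 genes, and SELENOF lies near -2 in both lines.

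**Figure D3:**
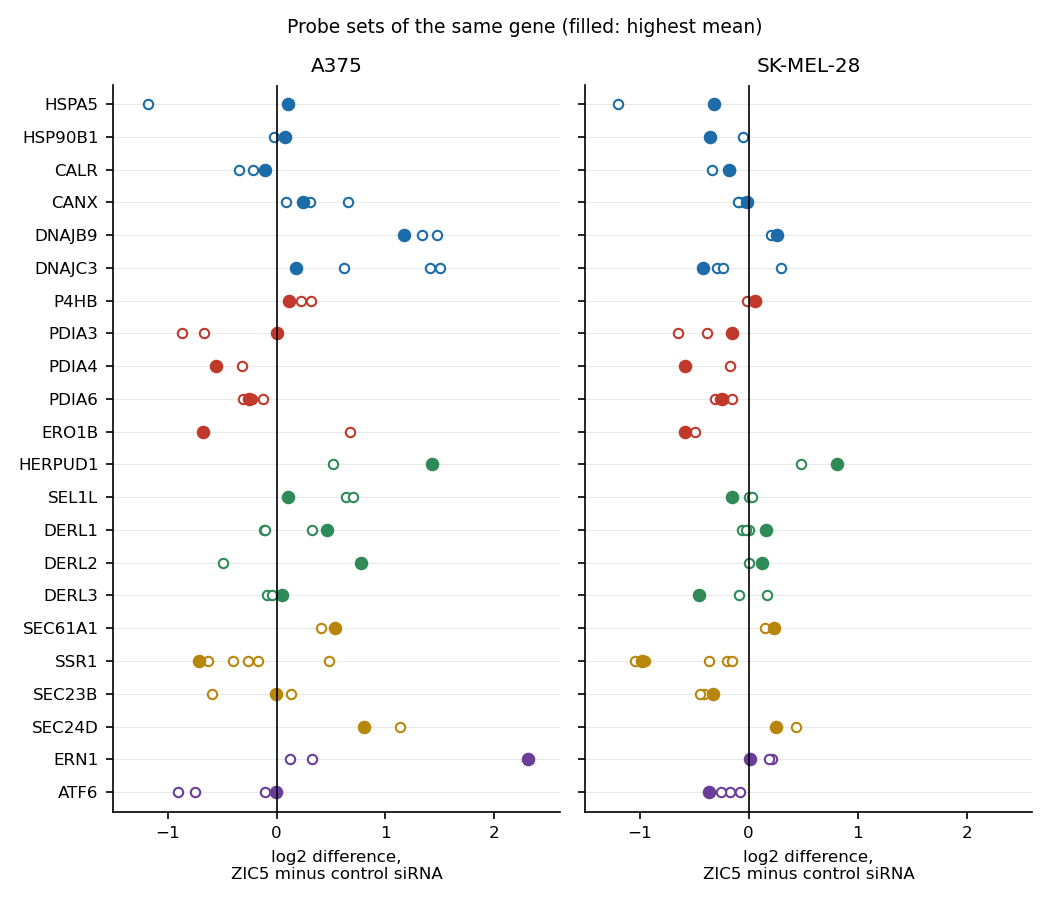
Log2 difference of every probe set at the level minimum for the 22 ER genes with more than 1, in A375 (left) and SK-MEL-28 (right), with the probe set used filled. HSPA5, DNAJC3, ERO1B, DERL2, SSR1 and ERN1 have probe sets that lie well apart in A375.

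Of the 22 genes with more than 1 probe set at the level minimum, 13 had a single sign over their probe sets in A375, 17 in SK-MEL-28 and 10 in both lines.

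The lines were then set against each other gene by gene. The siRNA difference was greater in A375 than in SK-MEL-28 for 32 of 34 genes (94.1%), beside 49.7% of all genes, with a median gap of 0.34, beside 0.00. The exceptions were PDIA6 and ERO1B, with gaps of -0.01 and -0.09. The gap was greatest for ERN1 (2.29), DNAJB9 (0.91), XBP1 (0.84), SELENOS (0.67) and DERL2 (0.66). One dimmer ERN1 probe set gave 0.33 (A375) and 0.22 (SK-MEL-28), and another gave 0.13 (A375) and 0.19 (SK-MEL-28). The dimmer DERL2 probe set gave -0.49 (A375) and 0.0005 (SK-MEL-28), so the ERN1 and DERL2 gaps depend on the probe set. By class the median gap was 0.84 for the sensor class, 0.53 for ERAD, 0.37 for chaperones, 0.29 for translocation and ER exit and 0.05 for disulfide enzymes. The sensor class has 3 genes and its median is the XBP1 gap, with 2.29 for ERN1 and 0.36 for ATF6. The sensor EIF2AK3 is not on the list and lay the other way. It differed by 0.04 (A375) and 0.49 (SK-MEL-28), a gap of -0.45, so the class median depends on which sensors were listed. With 4 arrays an interaction leaves no residual degrees of freedom, so this gap was not tested.

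Counting both lines, 10 genes (29.4%) were higher in A375 and lower in SK-MEL-28, beside 16.9% of all genes, and 0 of 34 had the opposite pattern, beside 18.6%. With probe sets averaged, HSPA5, PDIA3 and DERL3 of these 10 were lower in both lines. Another 13 (38.2%) were lower in both, beside 32.5%, and 11 (32.4%) higher in both, beside 31.5%. Those lower in both lines were 6 chaperones, 4 disulfide enzymes, SSR1, SEC23B and ATF6, and 5 of the 11 that were higher in both belonged to ERAD.

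**Figure D4:**
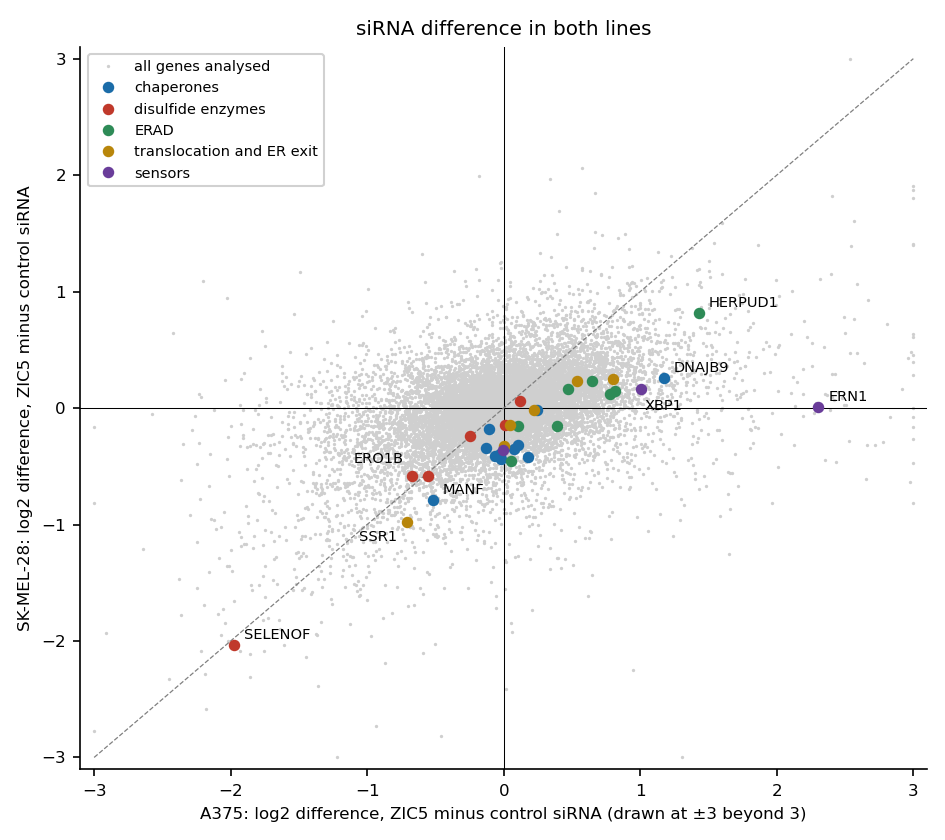
Log2 siRNA difference in SK-MEL-28 (vertical) against A375 (horizontal) for all 13794 genes (grey) and the ER genes by role (colour), with a dashed line where the lines are equal. All but 2 ER genes lie below the dashed line, and HERPUD1, DNAJB9, XBP1 and ERN1 lie farthest to the right.

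The siRNA effect common to both lines was fitted with limma with a term for line, and the n is 2 lines. After Benjamini-Hochberg adjustment limma called, at 0.05, 0 of the 34 ER genes and 0% of all 13794 genes, and the lowest adjusted p among the ER genes was 0.2685. At an unadjusted limma p under 0.05 it held 5 ER genes that were lower (14.7%, beside 7.31% of all genes) and 1 that was higher (2.94%, beside 5.9%). The 5 lower were SELENOF (mean difference -2.01, SE 0.15), SSR1 (-0.84, SE 0.14), MANF (-0.66, SE 0.15), ERO1B (-0.63, SE 0.16) and PDIA4 (-0.57, SE 0.14). The 1 higher was HERPUD1 (1.12, SE 0.21). Each of the 6 had the same sign in both lines on the probe set used, and none passed the adjusted threshold. ERN1, with 2.30 in A375 cells and 0.01 in SK-MEL-28 cells, had a mean of 1.16 with an SE of 0.61.

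The genes were also described by promoter motif. The 10 measured genes with an ERSE or ERSE-II had a median difference of 0.03 in A375 cells and -0.33 in SK-MEL-28 cells. In SK-MEL-28, 8 of these 10 were lower, beside 49.6% of all genes. The 20 whose window held neither had medians of 0.11 (A375) and -0.15 (SK-MEL-28), with 13 of 20 lower in SK-MEL-28. HERPUD1 was at the high end and ERO1B at the low end of the first group in both lines. A further 17 analysed genes outside the list have an ERSE or ERSE-II in their window, a set looked at after values were seen, and their medians were -0.02 in A375 cells and -0.09 in SK-MEL-28 cells.

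A companion list of 123 other genes of the same roles gave 113 genes analysed. Their median difference was 0.09 in A375 cells and -0.01 in SK-MEL-28 cells, with 70 of 113 (61.9%) above 0 in A375 and 55 (48.7%) in SK-MEL-28. In A375, 15 (13.3%) were at least 1.5-fold higher and 7 (6.19%) lower, beside 12.1% and 12.9% of all genes, and in SK-MEL-28, 6 (5.31%) were higher and 5 (4.42%) lower, beside 4.2% and 6.41%. The siRNA difference was greater in A375 for 72 of the 113 (63.7%), with a median gap of 0.13. In the companion sensor class it was greater in A375 for 9 of 15, with a median gap of 0.19. Other ERAD genes were above 0 in 16 of 24 cases in A375 and 18 of 24 in SK-MEL-28. The companion disulfide enzymes did not share the low medians of the listed ones, with medians of 0.05 (A375, 7 of 14 above 0) and 0.04 (SK-MEL-28, 8 of 14 above 0). Companion chaperones were below 0 in 8 of 18 cases in A375 and 14 of 18 in SK-MEL-28. The shares of all genes below 0 were 51.2% in A375 and 49.6% in SK-MEL-28. Limma called 0 of the 113 at an adjusted p under 0.05, and at an unadjusted p under 0.05 held 10 that were higher (8.85%, beside 5.9% of all genes) and 7 lower (6.19%, beside 7.31%).

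Companion genes with the greatest mean difference included effectors of the EIF2AK3 branch and parts of the targeting machinery. DDIT3 (CHOP) read 1497 with ZIC5 siRNA and 214 with control siRNA in A375 cells, and 431 with ZIC5 siRNA and 261 with control siRNA in SK-MEL-28 cells, and TRIB3 differed by 1.13 (A375) and 1.34 (SK-MEL-28). MBTPS2, the membrane protease that releases active ATF6, read 525 with ZIC5 siRNA and 1093 with control siRNA in A375 cells and 484 with ZIC5 siRNA and 1485 with control siRNA in SK-MEL-28 cells, differences of -1.06 (A375) and -1.62 (SK-MEL-28). The 2 subunits of the signal recognition particle receptor lay opposite ways, SRPRA at -1.06 (A375) and -0.88 (SK-MEL-28) and SRPRB at 0.66 (A375) and 0.74 (SK-MEL-28). LMAN1, a cargo receptor for glycoproteins, differed by -1.13 (A375) and -0.65 (SK-MEL-28).

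Among other folding genes, the collagen chaperone SERPINH1 differed by -0.76 in A375 cells and -0.46 in SK-MEL-28 cells, DNAJB14 by 0.49 (A375) and 0.81 (SK-MEL-28) and DNAJC1 by 0.70 (A375) and 0.35 (SK-MEL-28). The thioredoxin-related membrane protein TMX4 differed by -1.31 (A375) and -0.28 (SK-MEL-28), the peroxidase GPX8 by 0.96 (A375) and 0.60 (SK-MEL-28) and ERP29 by 0.89 (A375) and 0.16 (SK-MEL-28). In ERAD, FAF2, which recruits VCP, differed by 0.71 (A375) and 0.53 (SK-MEL-28), the deglycosylase NGLY1 by 0.82 (A375) and 0.32 (SK-MEL-28) and the rhomboid protease RHBDD1 by 0.82 (A375) and 0.20 (SK-MEL-28).

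The level of the ER genes in A375 was compared with that in SK-MEL-28 over both siRNAs, in the same limma fit. Of the 34 genes, 8 (23.5%) were lower in A375 at a limma adjusted p under 0.05, beside 13.4% of all genes, and 2 (5.88%) were higher, beside 14.2%. At an unadjusted limma p under 0.05 the counts were 15 lower (44.1%, beside 19.8%) and 2 higher (5.88%, beside 22.7%). Centring each array on its median gave 13 genes lower (38.2%, beside 16.2% of all genes), and a fit without the siRNA term gave 4 (11.8%, beside 9.78%), near the share of all genes. Called or not, 24 of 34 lay lower in A375, with a median of -0.30, beside 0.01 over all genes. The summed melanocytic markers differed between the lines too, as given above, and their part in these values was not tested. Lower in A375 were SDF2L1, CRELD2, DNAJB11, SELENOF, PDIA6, P4HB, SSR1 and XBP1, and higher were ERO1B and SSR2.

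SDF2L1 read 245 with ZIC5 siRNA and 256 with control siRNA in A375, and 673 with ZIC5 siRNA and 896 with control siRNA in SK-MEL-28. It was 3.11-fold lower in A375 (log2 difference -1.63, SE 0.19, limma adjusted p = 0.0134), and the lines did not overlap. CRELD2 (-1.29, SE 0.16) and DNAJB11 (-1.19, SE 0.16) were lower likewise. XBP1 was 2.77-fold lower (-1.47, SE 0.26, limma adjusted p = 0.0293). The XBP1 difference was -1.05 with ZIC5 siRNA and -1.89 with control siRNA, so it was smaller between the ZIC5 siRNA arrays. DNAJB9 showed the same narrowing, -0.66 with ZIC5 siRNA and -1.57 with control siRNA, and its mean of -1.11 did not pass (limma adjusted p = 0.0590).

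PDIA6 (-0.67, SE 0.10), P4HB (-0.61, SE 0.10) and SELENOF (-0.86, SE 0.15) were lower in A375 by similar amounts under both siRNAs. ERO1B was 4.95-fold higher in A375 (2.31, SE 0.16, limma adjusted p = 0.00589), and both of its probe sets gave nearly the same difference, 2.31 and 2.27. SSR2 read 5040 with ZIC5 siRNA and 4891 with control siRNA in A375 cells and 2318 with ZIC5 siRNA and 2568 with control siRNA in SK-MEL-28 cells, 2.04-fold higher in A375 (limma adjusted p = 0.0133).

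SSR1 was lower in A375 on the probe set used (-1.22, SE 0.14, limma adjusted p = 0.0131), but its 6 probe sets did not agree. Those with the suffix _s_at gave differences from -1.22 to -0.84, and the other 2 gave 0.56 and 0.82, so the direction of SSR1 between the lines depends on the probe set. Of the 22 genes with more than 1 probe set, 15 had a single sign for the line difference. Several main ER genes were close between the lines on the probe set used, with line differences of -0.11 for CALR, 0.10 for HSP90B1, -0.23 for HSPA5, -0.02 for SEC61B and 0.01 for ATF6, each below 2 SE. Dimmer ATF6 probe sets gave 0.47, 0.61 and 0.92, and dimmer CALR probe sets -0.25 and -0.41. For these 2 genes the closeness thus depends on the probe set.

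**Figure D5:**
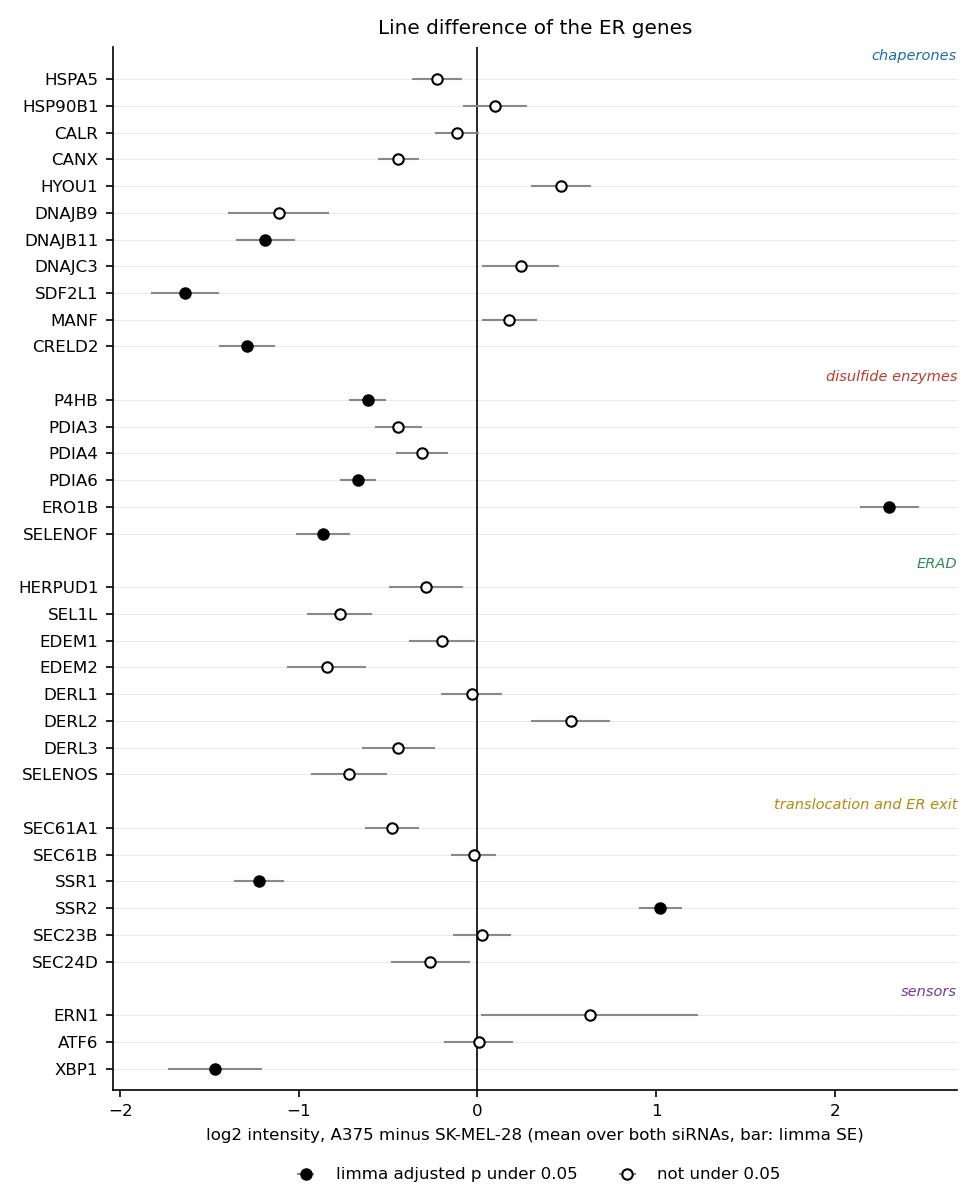
Log2 intensity in A375 minus SK-MEL-28, averaged over both siRNAs, with the limma SE as a bar, for each ER gene. Filled symbols mark the 8 genes lower and 2 genes higher in A375 at a limma adjusted p under 0.05, and ERN1 has the widest bar.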

How the data were processed

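Per the submitters' processing notes, the authors used RMA, run in Affymetrix Expression Console. For its version and the genome build, the sources used here give nothing. The deposited value is an intensity on a linear scale, 1 for each probe set on each array, from 2.78 to 22531. RMA sets all arrays to 1 distribution, so a change in total RNA per cell would not appear. No value column was left without a sample, and each of the 4 arrays was placed in its group by its title.

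Log2 was taken. Of 54613 probe sets, 41091 name 1 gene in the platform annotation, 1801 several and 11721 none; of the first, 41037 matched RefSeq by entrez ID, with 0 symbols changed. A gene took its probe set with the highest mean, and genes with a mean log2 of at least 5 (intensity 32) were analysed, 13794 of 19775. Differences within a line are descriptions. The siRNA effect and the difference between lines were fitted together, without interaction, across all genes (limma 3.58.1, R 4.3.3, lmFit and eBayes with trend, Benjamini-Hochberg adjustment), with 1 residual degree of freedom per gene and 2.85 prior degrees of freedom. The fit was tested on simulated data. Separate cultures are not stated. The 1 residual degree of freedom is the gap in siRNA difference between the lines, which eBayes moderates across genes. An SE therefore grows with how far the lines disagree and holds no replicate error. ERN1, with a gap of 2.29, had an SE of 0.61, and PDIA6, with a gap of -0.01, had 0.10. The p-values for siRNA and for line both rest on this error, and 4 arrays limit the precision.

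The ER list, its classes and the companion list were chosen with earlier results of these data known. All members are named, with ZIC5 and, from the companion list, the 3 genes per class with the greatest absolute mean difference. EIF2AK3, also from the companion list, was added after values were seen. Alternatives were the level minimum, a floor on low values, the choice of probe set, scaling, the variance trend and the block.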

Additional observations from a re-analysis of the deposited data

Results flagged for a closer look

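For 10 ER genes the arrays of the 2 lines lay opposite ways, higher with ZIC5 siRNA in A375 and lower in SK-MEL-28. These log2 differences, each from 1 array against 1, were not tested against each other. Among chaperones the A375 and SK-MEL-28 differences were 0.10 and -0.32 for HSPA5, 0.074 and -0.35 for HSP90B1, 0.25 and -0.017 for CANX and 0.18 and -0.42 for DNAJC3. The disulfide isomerase PDIA3 had 0.0072 and -0.15. In ERAD the values were 0.11 and -0.15 for SEL1L, 0.39 and -0.15 for EDEM2 and 0.053 and -0.46 for DERL3. Above 0 in SK-MEL-28 were dimmer probe sets of DNAJC3 (0.29), SEL1L (0.032) and DERL3 (0.17). The channel subunit SEC61B had 0.22 and -0.013, and SSR2 had 0.043 and -0.15. With the probe sets of a gene averaged, 3 of the 10 were lower in both lines, HSPA5 (-0.54 and -0.76), PDIA3 (-0.51 and -0.39) and DERL3 (-0.023 and -0.13). EDEM2 alone of the 10 was beyond the median spread between probe sets of a gene in both lines (0.25 and 0.15), a size condition added after the values were seen. In SK-MEL-28 its difference of -0.154 was only just beyond 0.15. EDEM2 read 281 with ZIC5 siRNA and 214 with control siRNA in A375 cells, on 1 probe set, and 417 with ZIC5 siRNA and 464 with control siRNA in SK-MEL-28 cells.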

How the results depend on the processing

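The labels give no replicate numbers to pair by. The arrays were paired by line, as the limma fit of the siRNA effect sets arrays of the same line against each other. With 1 array per group no replicate could be left out. With probe sets of a gene averaged, 2 members were at least 2-fold higher and 1 was at least 1.5-fold lower in A375. With plain _at probe sets, which leave 27 members, 0 were 1.5-fold higher and 2 lower in SK-MEL-28. The matching shares of all genes were not computed. At a level minimum of 7 the disulfide median became -0.25 (A375) and -0.24 (SK-MEL-28), with plain _at probe sets -0.22 (A375) and -0.16 (SK-MEL-28), and the sensor median in A375 became 0.50 at a minimum of 7. Members called lower in A375 numbered 13 with arrays centred (38.2%, beside 16.2% of all genes) and 4 without the block (11.8%, beside 9.78%). At a minimum of 7, 12 were called lower (38.7%, beside 19.1%) and 1 higher, beside 19.3% of all genes. Averaging probe sets turned the A375 sign of ERO1B (0.003), HSPA5 (-0.54), PDIA3 (-0.51) and DERL3 (-0.023), the siRNA effect over both lines of DNAJC3 (0.38) and SEL1L (0.22), the DERL1 line difference (0.078) and the SEC23B line difference (-0.25). Plain _at probe sets turned DERL1 in both lines (-0.11 in A375, -0.001 in SK-MEL-28), DERL3 in A375 (-0.085), the DERL1 siRNA effect over both lines (-0.056), the SEC23B line difference (-0.68) and the SSR1 line difference (0.82, again past the limma threshold). Scaling turned values near 0, with PDIA3 at -0.017 in A375 with centred arrays. The SEC23B line difference became -0.024 with cyclic loess, and the ATF6 line difference became -0.018 with centred arrays and -0.045 with cyclic loess. The cause of these changes was not tested. Of the alternative values for single genes, 984 kept their sign and side of the threshold or moved by less than the spread between probe sets. Another 26 moved by at least that spread and 11 were counted as reversed. A sign turn within a line counted as reversed only where the main difference was at least 1.5-fold. Of the turns within a line named above, only that of ERO1B was counted so. The limma threshold was passed only in the alternative for 20 and only in the main fit for 7. The level minimum and the floor cannot alter a within-line difference of the members, so these settings say little. Without the level minimum 136 of 136 were the same, with averaged probe sets 109 of 136. The share of members with a greater difference in A375 ranged from 81.5% to 97.1% over the alternatives, beside 47.1% to 51.3% of all genes. Low intensities, as for ERO1B in SK-MEL-28 and DERL3, limit what the arrays can resolve.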
